A study of Homo sapiens with 30 samples.

Results

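The regions described here are those that the authors' lists of nuclear off-target places label DL or DR. Every line of the ND4, ND5.1 and ND6 lists whose identifier carries either label was taken, which gave 171 of the 1338 regions in these lists and of 1949 in the whole series. ND6 held 91 DL and 29 DR regions, ND5.1 held 13 and 26, and ND4 held 1 and 11, so that 105 were DL and 66 were DR. The rule used the identifier alone. How the authors defined and assigned the labels is not given in the sources used here.

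All cells were HEK293T, a transformed line from human embryonic kidney, and every group tied to these lists received a DdCBE, a base editor for mitochondrial DNA (mtDNA), or a version of it with a dead or missing part. The series has 30 libraries, and the descriptions in the labels attach 10 of them to the ND4 list, 8 to ND5.1 and 9 to ND6. Each of these lists is thereby tied to 2 pulldown libraries of the L1397N editor, 2 further L1397N pulldown libraries titled Lipo2000, 1 input library, 1 with dead DddA, 1 without the left TALE array and 1 without the right one. The ND4 list is also tied to 2 libraries of the L1397C orientation, and the ND6 list to 1 of DddA parts without any TALE array. The libraries that lack an array are labelled add-MTS, which in this field stands for a mitochondrial targeting signal. A list gives 1 pooled value per region and none per library, so no value below has a replicate error. Tests between classes or between editors count regions, cover counting error only and do not compare cell cultures.

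A DdCBE works as a pair. DddA is a bacterial deaminase that turns cytosine into uracil in double-stranded DNA, and it is split into inactive parts that act when they meet. Each part is fused to a TALE array, a row of repeats in which each repeat reads a single base of one DNA strand, and TALE target sites usually begin after or with a thymine. Detect-seq cuts DNA at deoxyuridine, fills in new bases from that point in the 3′ direction with a modified cytosine that is read as thymine, and pulls the labelled fragments down. The mark of a deaminated base therefore runs over several cytosines of a strand.

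Each DL or DR region has an interval of its own and a further interval in another column. In ND6, DL regions were 11 bases wide without exception and DR regions 12. In ND5.1 the widths were 16 and 14 bases, and in ND4 they were 18 for both. The further intervals varied from 6 to 82 bases, with medians of 22 and 29 in ND6 (DL, DR), 26 and 21.5 in ND5.1, and 25 for DR in ND4. The fixed quantity was therefore the region's own interval, and the variable one was the further interval. For comparison, class IND, whose 2 intervals are the same, had median widths of 17.5 bases in ND6, 19 in ND5.1 and 26 in ND4.

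The sequence could be read for the 2 regions that lie, with 8 bases on each side, inside a RefSeq promoter window, and both are DL regions of ND6. They are shown because no other region could be read, and each had a different one of the 2 layouts described below. No DR region and no region of ND5.1 or ND4 could be read. ND6-DL-55 lies inside USP54, 58 bp from a start site. USP54 is a member of the ubiquitin-specific protease family, and the stretch shown is chr10:73625691-73625746 on the plus strand. ND6-DL-68 lies inside LINC00642, a long noncoding RNA gene, 19 bp from a start site and also in the promoter window of its neighbour LINC02317, and the stretch shown is chr14:90455236-90455275 on the minus strand. Their own intervals are bases 73625699 to 73625709 and 90455249 to 90455259. Both are written 5′ to 3′ on the strand given in the file, from RefSeq on GRCh38.p14, with the region's own interval in capitals.
ND6-DL-55: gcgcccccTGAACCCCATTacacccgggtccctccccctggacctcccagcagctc
ND6-DL-68: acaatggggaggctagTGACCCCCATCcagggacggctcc

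The own intervals were alike in sequence. TGAACCCCATT and TGACCCCCATC shared 9 of 11 bases, and the differences were A4C and T11C, with positions counted from 1 at the 5′ end and the base of ND6-DL-55 first. Both began with a thymine. How the authors placed the own intervals is not given in the sources used here, so whether this likeness was built in is not known. The same stretches follow with the further interval in capitals.
ND6-DL-55: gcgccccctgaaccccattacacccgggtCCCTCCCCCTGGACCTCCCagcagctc
ND6-DL-68: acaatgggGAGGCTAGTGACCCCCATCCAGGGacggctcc

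The further interval of ND6-DL-55 began after a gap of 10 bases beyond the 3′ end of its own interval and ran away from it, and it began and ended with C on the strand of the region. That of ND6-DL-68 ran over the own interval and its last base lay 5 positions past the last base of the own interval. It began and ended with G on the strand of the region, and so with C on the opposite strand. In these 2 regions the strand column thus gave the strand that reads TGA at its start, and the cytosines at the ends of the further interval lay on the same strand in one case and on the other strand in the other case. In class IND and IND.Extend, all 48 intervals inside a promoter window began and ended with C on the strand the file names. Of these, 28 were on plus and 20 on minus. ND6-DL-55 had that pattern too and ND6-DL-68 did not. Whether the strand column differs in meaning between the classes cannot be told from 2 regions.

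The letters common to both regions, TGANCCCCAT, were searched on both strands of the 34935 distinct promoter windows of 300 bases. They occurred in 64 windows (0.183%), and 3 of those windows held a DL region of ND6, 2 of them being the overlapping windows around ND6-DL-68. The remaining window held ND6-DL-55. The letters were taken from these same regions, so the 3 matches were fixed in advance. TGAACCCCAT occurred in 16 windows and TGACCCCCAT in 15, and these searches are contained in the first. Most windows with the letters therefore held no DL or DR region. With 2 sequences nothing can be said of the 169 other regions, whose sequence was not analysed here.

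Read 5′ to 3′ along the strand column, the further interval took 1 of 2 places in all 171 regions. In 114 regions it shared at least 1 base with the own interval (called covering below, also where the overlap was partial). It contained the whole own interval in 83 of these 114. In the remaining 57 of the 171 regions the further interval lay wholly beyond the 3′ end (called displaced). In none did it lie wholly beyond the 5′ end. The layout was fixed on one edge in each case. In covering regions the last base of the further interval lay 3 to 7 bases past the last base of the own interval in 110 of 114, with 55 at 5 bases, 31 at 6 and 17 at 4. Its first base was spread from 47 bases before to 12 bases after the first base of the own interval, with a quartile range of -13.75 to 1. In displaced regions the gap between the intervals was 7, 8, 9 or 10 bases, in 2, 22, 23 and 10 regions, whereas the far edge lay 16 to 46 bases past the own interval. The fixed edge of a displaced further interval was the near one, with an SD over regions of 0.796 bases for the gap against 7.72 for the far edge.

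The covering layout was shared by all 3 editors and both classes. In ND4 the 3′ edge lay 5 bases past the own interval in 9 of 11 DR regions, and 4 and 6 bases past it in 1 each. In ND5.1 DR it was 5 bases in 15 of 25 covering regions, 6 in 7 and 4 in 3. In ND6 DR it was 5 bases in 20 of 28, 4 in 7 and 7 in 1. The DL class of ND5.1 had 5 regions at 6 bases, 4 at 5, 2 at 4 and 1 at 3. The most common place in ND6 DL was 6 bases, in 18 of 37 covering regions, followed by 5 bases in 7, 7 bases in 5 and 4 bases in 4. Apart from 3 ND6 DL regions described below, the place of this edge varied by at most 4 bases in these groups, although the own intervals ranged from 11 to 18 bases in width. The single DL region of ND4, at chromosome X, 46441982 to 46441999, had its 3′ edge 9 bases past the own interval.

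The displaced layout belonged mainly to DL regions of ND6. There, 54 of 91 further intervals were displaced (59.3%, exact 95% interval 48.5 to 69.5), against 1 of 29 in ND6 DR (3.45%, 0.0873 to 17.8). The difference was 55.9 percentage points (Fisher's exact test over regions, two-sided, adjusted p = 1.91e-07 over the 18 tests of this kind). Among DL regions, the ND6 list exceeded the ND5.1 list, where 1 of 13 was displaced (7.69%, 0.195 to 36.0), by 51.6 points (Fisher's exact test, adjusted p = 0.00333). Each editor gave 1 pooled list, so this test counts regions and holds no replicates of an editor. With the centres of the intervals in place of their edges, the difference between ND6 DL and ND5.1 DL was 20.9 points and no longer passed (Fisher's exact test, adjusted p = 0.547). With the regions in the upper 50% of their list by signal alone, 14 of 19 ND6 DL and 0 of 4 ND6 DR regions were displaced, and the test no longer passed (Fisher's exact test, adjusted p = 0.0640).

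Among DR regions 1 of 29 in ND6, 1 of 26 in ND5.1 and 0 of 11 in ND4 were displaced, and no difference between editors passed (Fisher's exact test, adjusted p = 1 for each). By centres in place of edges, ND6 DR lay -45.1 points from ND5.1 DR, a difference that passed (Fisher's exact test, adjusted p = 0.00511), and that from ND4 DR turned to -30.4 points. The counts are small, and the interval for ND4 DR reaches 28.5%, so a modest difference was not detectable. Within ND5.1, DL and DR had 1 displaced region each (Fisher's exact test, adjusted p = 1), and by centres the difference turned from 3.85 to -15.4 points. Whether the layout itself entered into the authors' choice of class is not given in the sources used here.

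Outside ND6 DL there were 3 displaced regions, with gaps in the same range. ND5.1-DL-9, inside HSPA8, which encodes a constitutive heat shock chaperone, lies at chromosome 11, 123057948 to 123057963, with a gap of 10 bases. ND5.1-DR-3, inside PKP4, an armadillo-repeat gene of cell junctions, lies at chromosome 2, 158497834 to 158497847, also with 10 bases. ND6-DR-21, at chromosome 15, 91376384 to 91376395 and 73819 bp from SV2B, a synaptic vesicle gene, had 9 bases. Counted from the 3′ end, these gaps fell within the range of the ND6 DL regions, although the own intervals were 16, 14 and 12 bases wide. They were thus exceptions in class and editor but not in distance.

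A few covering regions departed from the common edge. ND6-DL-26, at chromosome 5, 77948059 to 77948069, had the widest further interval of all, 82 bases, which began 6 bases before its own interval and ended 65 bases past it. It also had the highest signal of the ND6 DL regions. ND6-DL-77 (chromosome 17, 56977163 to 56977173) reached 25 bases past the own interval and ND6-DL-70 (chromosome 15, 95715646 to 95715656) reached 36. These further intervals span both the place of the covering edge and the place where displaced intervals begin. In ND5.1-DL-7, inside TCF7L2, a transcription factor of Wnt signalling, the further interval was 66 bases wide. It reached 47 bases before the own interval and kept its 3′ edge 3 bases past it.

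A group of 3 ND6 DL regions sat at the border of the layouts. ND6-DL-34, ND6-DL-46 and ND6-DL-74 shared exactly 1 base with their further intervals, which were only 7, 6 and 7 bases wide. Their 3′ edges lay 6, 5 and 6 bases past the own interval, where the covering edge lies. If starts were counted from 0, these 3 would be displaced and the ND6 DL count would be 57 of 91. The ends on C or G support counting from 1: with starts counted from 0, only 31 of 49 intervals of the other classes in promoter windows would have begun and ended on the same of these letters, against 48 of 48.

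Strand separated the editors. In ND6 the regions lay on both strands, 44 of 91 DL (48.4%) and 15 of 29 DR (51.7%) on plus, a difference of -3.37 points (Fisher's exact test, adjusted p = 1). In ND5.1 all 13 DL and all 26 DR regions were on minus, and in ND4 all 11 DR regions were, while its single DL region was on plus. Class IND of the same lists had 184 of 333 regions on plus in ND5.1 (55.3%) and 16 of 36 in ND4 (44.4%). Class IND.Extend leaned to minus, with 61 of 167 on plus in ND5.1 (36.5%) and 11 of 35 in ND4 (31.4%), and no class was tested against another here. The ND5.1 count of 0 of 39 on plus has an upper bound of 9.03% in the exact 95% interval, and that of ND4 DR one of 28.5%.

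The geometry in genome coordinates bears on whether the column holds a true orientation. In ND6 the fixed edge of covering further intervals was the right one in plus regions and the left one in minus regions, and displaced intervals lay to the right in 31 plus regions and to the left in 23 minus DL regions. In ND5.1 and ND4 the fixed edge was the left one in the minus regions, as in the minus regions of ND6. The one-sided strand of ND5.1 and ND4 was therefore a one-sided geometry as well. The cause was not tested.

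Signal was read as a rank within each list, since the authors' deposited signal value has no stated scale and lists cannot be set against each other. DL and DR regions of ND6 stood low in their list. Their median ranks were 523 and 582 of 716, against 316.5 for class IND, and the lowest signal of the list, 2.84, was that of ND6-DL-34. Of 120 DL and DR regions, 23 were in the upper 50% (19.2%, 12.6 to 27.4), against 337 of 596 of class IND (56.5%), a difference of -37.4 points (Fisher's exact test, adjusted p = 4.44e-13). In the upper 10% there were 0 of 120, for which the exact 95% interval reaches 3.03%, against 71 of 596 of class IND (Fisher's exact test, adjusted p = 1.91e-05).

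In ND5.1 the direction was the same. Of 39 regions, 13 were in the upper 50% (33.3%, 19.1 to 50.2), against 196 of 333 of class IND (58.9%), a difference of -25.5 points (Fisher's exact test, adjusted p = 0.0151). Class IND.Extend of that list also stood below class IND, with 61 of 167 in the upper 50% (36.5%) and a median rank of 341 of 539, a contrast that was not tested. The difference did not pass in the upper 25%, at -15.8 points (Fisher's exact test, adjusted p = 0.189), nor in the upper 10%, at -5.52 points (Fisher's exact test, adjusted p = 1). In ND4, 6 of 12 regions were in the upper 50% against 13 of 36 of class IND, so that they were 13.9 points higher, within counting error (Fisher's exact test, adjusted p = 1). Whether the ND4 contrast differs from those of the other lists was not tested.

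DL and DR did not differ past the threshold in rank. In ND6, 19 of 91 DL and 4 of 29 DR regions were in the upper 50% (Fisher's exact test, adjusted p = 1). The ND5.1 counts were 5 of 13 and 8 of 26 (Fisher's exact test, adjusted p = 1). In the upper 25% the ND6 difference turned from 7.09 to -1.25 points, and with ranks taken without class IND.Extend that of ND5.1 turned from 7.69 to -3.85 points. The signal ran from 2.84 to 26.03 with a median of 6.68 in ND6 DL, and from 3.71 to 17.5 with a median of 6.11 in ND6 DR. In ND5.1 it ran from 5.39 to 52.8 (median 8.21) in DL and from 3.88 to 35.2 (median 8.97) in DR. The classes overlapped over most of their range in both lists. Within ND6 DL the medians were 6.89 in the 54 displaced regions (4.26 to 20.7) and 6.45 in the 37 covering ones (2.84 to 26.03), with 14 and 5 of them in the upper 50%, a contrast that was not tested.

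The ND4 DR regions followed the width of the further interval. The region inside TSHZ2, a zinc finger transcription factor gene, at chromosome 20, 53025824 to 53025841, had the highest signal of the ND4 list, 36.7, and the widest further interval of its class, 48 bases. A region inside STX8, which encodes an endosomal SNARE protein (chromosome 17, 9401697 to 9401714), had 11.7 with 40 bases. They ranked 1 and 17 of 83.

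The middle of the class was narrower. A region inside PLCXD2 (chromosome 3, 111720707 to 111720724) had a signal of 8.11 with 29 bases. A region inside LIMA1, an actin-binding protein gene (chromosome 12, 50196804 to 50196821), had 7.80 with 19 bases. Their ranks were 32 and 34, close to the middle of the list.

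At the lower end the further interval covered only part of the own interval in the regions named here. It also did so in the LIMA1 region, so partial cover was not confined to the lower end. Over the 11 ND4 DR regions, the further interval contained the whole own interval in 6. A region 8974 bp from GRAMD2B had a signal of 5.51 with 19 bases. A region inside NOL4 (chromosome 18, 34144847 to 34144864) had 4.86 with 14 bases. The last 2 regions, 11959 bp from NIN and inside CFAP20DC-DT, had signals of 2.68 and 2.62 with 11 bases each and ranked 82 and 83 of 83.

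Over the 11 ND4 DR regions, log2 signal and width had a Pearson correlation of 0.907 and a Spearman correlation of 0.909, and without the widest region these were 0.839 and 0.878. Since the 3′ edge was fixed to within 2 bases, the width here is the reach toward and past the 5′ end. The correlation is across regions of 1 pooled list, which share their libraries and depth. In the other groups Spearman's correlation was lower, at 0.433 in ND5.1 DR (25 covering regions), 0.0635 in ND5.1 DL (12), 0.467 in ND6 DL covering (37), 0.141 in ND6 DL displaced (54) and 0.333 in ND6 DR (28). Without its widest region, ND5.1 DL moved from 0.0635 to 0.285, and its Pearson correlation from -0.0044 to 0.473. Without theirs, the ND6 DL covering regions moved from 0.467 to 0.421, with a Pearson correlation that went from 0.603 to 0.390. In class IND Spearman's correlation was 0.348, 0.236 and 0.325 in ND4, ND5.1 and ND6. How the signal was computed from the interval is not given in the sources used here, so a link by construction cannot be told apart from another.

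Ordered by signal, the first and second DL regions of ND5.1 stood far above the others, and the third was nearer to them. The first lay inside FRMD4B, a FERM domain gene (chromosome 3, 69434326 to 69434341), with a signal of 52.8 at rank 13 of 539. The second lay between genes at chromosome 4, 147158600 to 147158615, 212736 bp from TTC29, with 44.03 at rank 24. The third lay inside RPF1, a ribosome biogenesis factor (chromosome 1, 84489551 to 84489566), with 17.5 at rank 133. The other 10 ranged from 5.39 to 11.9.

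The DL regions in AGAP7P and AGAP10P, pseudogenes of the same family on chromosome 10, had the same layout, with further intervals of 22 bases that began 1 base before the own interval and ended 5 bases past it. They lie at 46125102 to 46125117 and at 45693991 to 45694006, with signals of 11.9 and 9.51. Pseudogenes of a family can share reads, so these values may not be separate. The RPF1 region had this same layout.

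The ND5.1 DR regions of highest signal began with 1 at chromosome 15, 97980740 to 97980753, that lay 6907 bp from ARRDC4, an arrestin domain gene, with a signal of 35.2 at rank 39. The PKP4 region followed with 24.2 at rank 84. A region inside LINC01618 (chromosome 4, 52790003 to 52790016) had 18.8 at rank 118. Those inside HAS2-AS1, which is antisense to a hyaluronan synthase gene, inside HLA-DQA1, an MHC class II gene of a highly variable locus, and inside LNX2, a ubiquitin ligase gene, ranked 137, 162 and 220.

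In ND6 the highest DL signal after ND6-DL-26, which had 26.03 at rank 81, was 20.7 at rank 121. That region lay inside KCNH6, a voltage-gated potassium channel gene, 517 bp from its start (chromosome 17, 63523875 to 63523885), and was displaced by 9 bases. Regions inside VSTM2B-DT (chromosome 19, 29404096 to 29404106) and LOC124900669 (chromosome 4, 13524754 to 13524764) ranked 198 and 206 and were covering, each with its 3′ edge 6 bases past the own interval. The 2 that followed lay between genes, at ranks 225 and 242, and were displaced by 10 and 9 bases. The largest gap in ND6 DL, 10 bases, was that of 8 regions, among them ND6-DL-22 and ND6-DL-84.

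Among ND6 DR regions the highest signal was 17.5, at rank 159, inside CCDC38 (chromosome 12, 95870389 to 95870400). A region inside CFAP95, a gene of cilia and flagella, at chromosome 9, 69821553 to 69821564 and 736 bp from a gene bound, had 11.8 at rank 264. A region inside PDE4D, a phosphodiesterase that degrades cAMP (chromosome 5, 59023273 to 59023284), had 8.61 at rank 399. The other 3 of the 6 highest lay outside genes. All 6 were covering.

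Genes held 112 of the 171 regions (65.5%, 57.9 to 72.6), and protein-coding genes held 89 (52.05%). The 112 regions fell in 119 genes, of which 92 are protein-coding, and GNAI3 alone held more than 1 of them. By list, 10 of 12 regions in ND4, 29 of 39 in ND5.1 (74.4%) and 73 of 120 in ND6 (60.8%) lay in a gene. Class IND had 52.8%, 57.7% and 56.9%. None of the differences, 30.6, 16.7 and 3.95 points, passed (Fisher's exact test, adjusted p = 0.272, 0.206 and 1). Neither did those of DL and DR, with 57 of 91 and 16 of 29 in ND6, and 10 of 13 and 19 of 26 in ND5.1 (Fisher's exact test, adjusted p = 1 for each). With gene bounds widened by 1 kb the ND5.1 difference turned from 3.85 to -7.69 points.

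Near gene starts the counts were as follows. Of the 88 ND6 DL regions on chromosomes with start sites in the RefSeq promoter table, 22 lay within 1 kb of one (25%, 16.4 to 35.4), against 1 of 27 DR regions (3.70%, 0.0937 to 18.97) and 74 of 569 regions of class IND (13.0%). In ND5.1, 0 of 13 DL (up to 24.7%) and 3 of 25 DR regions did, against 38 of 320 of class IND (11.9%). In ND4, 0 of 12 DL and DR regions did (up to 26.5%), against 4 of 34 of class IND (11.8%). Within ND6 DL, 15 of 53 displaced and 7 of 35 covering regions lay there. This contrast was noticed in the data and was not tested.

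Within 1 kb of a bound of a protein-coding gene lay 23 of 105 DL (21.9%, 14.4 to 31.03) and 5 of 66 DR regions (7.58%, 2.51 to 16.8), over all 3 lists and with no test. Of these totals, 91 DL and 29 DR regions are from ND6, so class and editor are mixed in the shares. The share in class IND was not computed, so whether either share is unusual is not known. In ND6 the highest by rank after KCNH6 lay inside MRPL35, a protein of the mitochondrial ribosome (chromosome 2, 86199921 to 86199931), at rank 252 and 488 bp from the bound. Regions inside MIX23, which encodes a mitochondrial protein (chromosome 3, 122382971 to 122382981, 250 bp), and 603 bp from ADCY1, an adenylyl cyclase (chromosome 7, 45573527 to 45573537), ranked 268 and 274. The next lay 498 bp from SLC9A8, a sodium-proton exchanger (rank 315), and inside RNF169, a ubiquitin-binding protein of DNA damage sites (rank 336, 888 bp).

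A further region lay inside RNGTT, the mRNA capping enzyme (chromosome 6, 88963155 to 88963165), at rank 386 and 453 bp from the bound. Another lay where C2, a complement gene, and ZBTB12 overlap (chromosome 6, 31901601 to 31901611), at rank 390 and 475 bp from the bound of ZBTB12. The DR region inside CFAP95, at rank 264 and described above, belongs between those of MRPL35 and MIX23. Of these, the MRPL35 and CFAP95 regions were covering and the others were displaced, with gaps of 8 to 10 bases. Only regions of highest signal are named, and the layout was not counted over all 28 regions this close to a bound. Over all ND6 DL regions, 59.3% were displaced.

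The gene lists taken from the biology of the editors were not hit. None of 75 genes for nuclear subunits of oxidative phosphorylation, 25 of uracil and base excision repair, 30 of mtDNA maintenance and expression and 62 cancer genes held a DL or DR region, and all of these genes have a position in the table. With 119 genes hit among 59679 in the table, and 92 among the 20037 protein-coding ones, few such hits could be counted in any case.

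No further interval of a DL or DR region matched that of another region. Regions of class IND or IND.Extend or of the ND5.3 list were identical to, overlapped or lay within 1 kb of 0 of the 171, for which the exact 95% interval reaches 2.13%. Within 10 kb, 3 did, and within 100 kb, 17 did. These counts join other classes of the same list with the lists of other editors. The same counts were not made for regions of the other classes. They therefore do not show whether DL and DR regions stand apart more than others do. The regions were spread over 23 chromosomes in ND6, 18 in ND5.1 and 11 in ND4, with at most 16 on 1 chromosome over all lists, chromosome 1.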

How the data were processed

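Detect-seq libraries of HEK293T cells gave 1 pooled list of regions per editor target. The submitters' processing notes name hg38 and the tools Picard, SAMtools, Bowtie2 and cutadapt. For roles, versions, the calling of regions and the classes, the sources used here give nothing. The authors' lists hold 1 score per region (a signal of unstated normalization), used here as ranks within a list and as log2 for correlations. Coordinates are printed as deposited and were read as counted from 1 with both ends included, after all 48 intervals of other classes inside RefSeq promoter windows proved to begin and end on C or G. Read depth is unknown.

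Offsets, layouts and gene overlaps were computed with Python 3.11.15, pandas 2.3.3, NumPy 2.4.6 and SciPy 1.17.1, and the geometry was tested on simulated data. Shares carry exact (Clopper-Pearson) 95% intervals. The 18 Fisher's exact tests were two-sided and adjusted by Benjamini-Hochberg, with a threshold of 0.05. Gene bounds, without exons, were those of RefSeq on GRCh38.p14, and start sites and sequence from promoter windows of 250 bases before to 50 after a start, which hold none for chromosome 8. The members and lists were chosen with earlier results of these data known. Named regions were all 12 of ND4, the 6 of highest signal per class in ND5.1 and ND6, up to 2 of largest offset per class, and up to 10 within 1 kb of a protein-coding gene bound. For this naming, offset meant the gap between the 2 intervals and not the place of the 3′ edge. The rule also named regions of smallest offset, which was undefined because covering regions, with no gap, tie at 0. The exceptions in layout, the GNAI3 pair and the 2 regions with sequence were named after their values were seen. Alternatives changed the edge, strand, coordinate, rank, gene and neighbour rules. Base composition over all regions was not analysed here, since no genome was used. Of the regions the rule names, 3 are not reported here.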

Additional observations from a re-analysis of the deposited data

How the results depend on the processing

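Of 72 alternative values for the 18 tests, 61 kept their direction and their side of the threshold. With centres in place of edges, the side differences were -15.4 points for ND5.1 DL against DR, 20.9 for ND6 DL against ND5.1 DL, -45.1 for ND6 DR against ND5.1 DR, which then passed, and -30.4 for ND6 DR against ND4 DR, since covering intervals then get a side too. With regions in the upper 50% by signal alone, fewer in number, ND6 DL exceeded ND6 DR by 73.7 points and ND5.1 DL by 53.7, and neither passed. In the upper 25% the rank differences were -1.25 points for ND6 DL against DR and -15.8 for ND5.1 DL and DR against IND, and in the upper 10% the latter was -5.52. Without class IND.Extend in the ranks, ND5.1 DL against DR was -3.85 points. With gene bounds widened by 1 kb, ND5.1 DL against DR was -7.69 points in gene bodies. The median place of the covering edge, 5 bases, was -0.5 from centre to centre. The median gap of displaced regions, 9 bases, was 24 from centre to centre, 28 from near to far edge and 10 with starts counted from 0. Members sharing a further interval with another member numbered 0 if identical and 2 if overlapping or within 1 kb. The cause of the changed rank and gene results was not tested. No paired analysis was possible because each list gives 1 pooled value per region, so no replicate could be left out either. Depth per library is unknown, and the classes other than ND6 DL hold 1 to 29 regions. The planned test of motifs over all regions was not run, for want of a genome here.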

Other observations

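Members that lay close together were rare. ND6-DL-79 and ND6-DL-80 gave the same own interval, chromosome 18, 24878785 to 24878795 on plus, with further intervals of 35 and 24 bases that ended at the same base, 7 bases past the own interval. They are therefore 1 place listed with 2 further intervals, and their signals were 8.78 and 7.70 at ranks 389 and 449 of 716.

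GNAI3, an inhibitory G protein subunit gene, held ND6-DL-6 and ND6-DR-4, whose starts lie 6073 bp apart on chromosome 1. Both were covering, with 3′ edges 6 and 5 bases past their own intervals, and their ranks were 430 and 714 of 716. The nearest regions of different editors were ND5.1-DR-11, inside SLC44A4, a choline transporter family gene, and ND6-DL-33 at C2 and ZBTB12, with starts 26279 bp apart on chromosome 6. No further pair lay within 100 kb.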
